A study of Drosophila melanogaster with 23 samples.

Results

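Adult males of the Drosophila melanogaster strains Oregon R and Zimbabwe53 were compared directly on 2 of the 23 spotted 2-colour cDNA arrays of a study of expression differences within the species. These are the arrays whose channels carry Oregon R and Zimbabwe53 in the sample labels. Oregon R was in channel 1 of the array called the Oregon R-first array here, and Zimbabwe53 was in channel 1 of the other, called the exchanged array. On such an array, cDNA of both strains competes for each printed cDNA, and only the ratio of the channels is kept. Differences were tested in a fit of the 21 arrays of different strains. Its other strains were Canton S, Hikone R, St Louis, Zimbabwe2, Zimbabwe29 and Zimbabwe30. Oregon R is an old laboratory stock. Strains named for Zimbabwe come from a population known for females that discriminate against males of strains from the rest of the world. Per the labels, all flies were wild-type strains reared at 25 °C without a light cycle, collected within 24 h of emergence, and kept apart from females for a further 3 to 4 days. Whole flies were extracted in batches of 8 to 12, and all extractions of a strain were joined into 1 RNA pool. With 1 pool per strain, errors and p-values cover the spread between arrays and not between flies or rearings. Strain, rearing and pool cannot be told apart, nor can more cells of a type and more RNA per cell.

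Both arrays gave a value for 3108 of the 6101 features of the table. The Oregon R-first array had 3274 measured features and the exchanged array 4704, so 166 were measured only on the first and 1596 only on the second. Of the 3108 shared features, 952 had a single gene symbol in the platform annotation, for 898 genes, 46 had several symbols and 2110 had none. The base of the logarithm is not stated. Values were taken as log10, put on the log2 scale and centred on the median of each array, and all folds rest on that choice. The largest value in the table stands for a 36.4-fold ratio on that reading and for a 2.95-fold ratio if the base were 2. The channel that served as numerator is not stated either. Values therefore carry the sign of the Oregon R-first array, and genes are said to lie on its positive or negative side. Which strain had more RNA of a gene cannot be read from the sign. No signal intensities were used here, so levels, and with them the markers of male and female tissue, could not be checked.

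The 2 arrays mirrored each other in part. Across the 3108 features, the log2 ratios of the arrays had a correlation of -0.58, a description over features that share both pools. In the pairs with exchanged channels this value ran between -0.81 for St Louis with Zimbabwe53 and -0.29 for Zimbabwe30 with Zimbabwe53. The SD was 0.41 on the Oregon R-first array and 0.46 on the exchanged array, against 0.14 on the array of Zimbabwe53 with itself and 0.17 on that of Canton S with itself. In the mean of the 2 arrays, with the exchanged one turned, 6.08% of features lay beyond 1.5-fold and 2.12% beyond 2-fold. The 2 arrays had the same side once turned in 61.9% of the 3108 features. Among the 8 pairs of strains hybridised with exchanged channels, the share beyond 1.5-fold ran between 2.37% for Oregon R with Canton S and 9.16% for St Louis with Zimbabwe53. On the 1727 features measured on all arrays of different strains, the share was 7.01% for Oregon R with Zimbabwe53, 8.63% for Canton S with Zimbabwe53 and 2.37% for Oregon R with Canton S. No test was made between pairs.

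**Figure D1:**
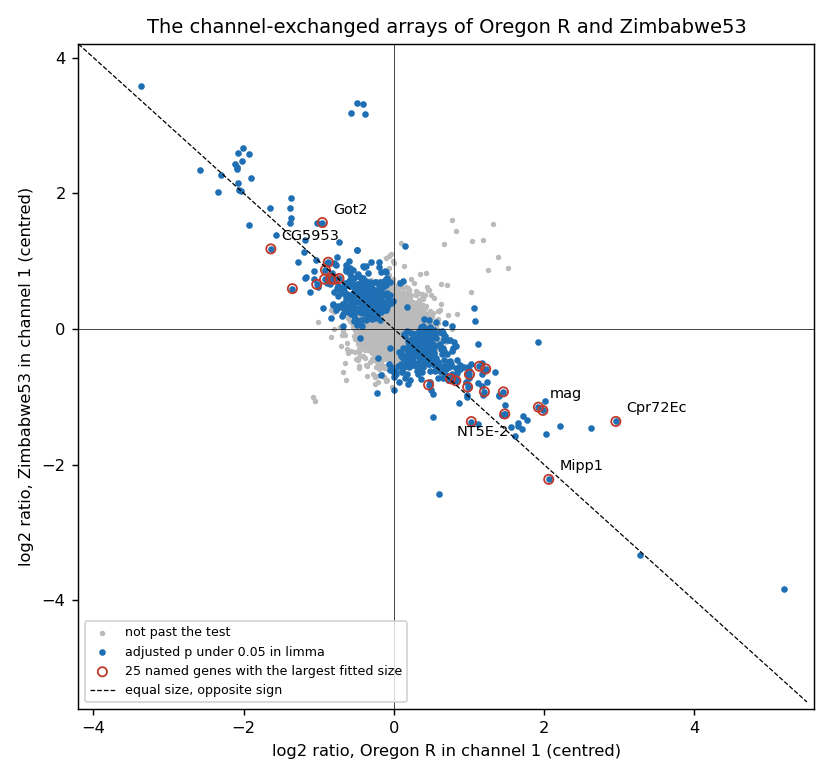
Each point is a fitted feature, with its centred log2 ratio on the Oregon R-first array (horizontal axis) and on the exchanged array (vertical axis). The dashed line marks equal size and opposite sign. Of the 631 features past the test, 606 have the same side on both arrays once turned and 25 do not. All 25 named genes with the largest fitted size (red circles) fall in the 2 quadrants of opposite sign. Both arrays took part in that test, so the shared sides are a description only.

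The first comparison asked which features differed between Oregon R and Zimbabwe53. Strain levels were fitted to all 13 hybridised pairs of strains with limma, and the difference between Oregon R and Zimbabwe53 was tested in that fit, which draws on all 21 arrays of different strains. Of 3102 features fitted, 631 passed at an adjusted p under 0.05 (20.3%), 312 on the positive side (10.1%) and 319 on the negative side (10.3%). Positive calls made up 49.4% of the total, and 59.97% where arrays were not centred. Beyond 2-fold lay 62 features, of which 23 had 1 of the 2 highest row numbers in their identifiers. Those row numbers belong to 73 of the 3102 features fitted. Among 895 named genes, 160 passed (17.9%), 79 on the positive side (8.83%) and 81 on the negative side (9.05%). They differed 1.33-fold in the median, and the smallest difference that passed was 1.17-fold. Beyond 1.5-fold lay 38 of them, 19 on each side, and beyond 2-fold 9. The median SE was 0.094 log2. For 153 of the 160 genes the 2 direct arrays lay on the same side once turned, against 61.9% of all 3108 shared features. Both direct arrays took part in the fit that called these genes, so their shared side is a description only.

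The 25 named genes with the largest fitted size ran between 1.64-fold and 4.96-fold, with 15 on the positive and 10 on the negative side. For all 25 the 2 direct arrays lay on the same side, and in 23 each array was beyond 1.5-fold. On the array of Zimbabwe53 with itself, the 24 of them with a value lay between -0.28 and 0.25 log2, and on the array of Canton S with itself the 23 with a value lay between -0.24 and 0.31. Their adjusted p-values in limma ran between 3.2e-10 and 0.00013. All 25 passed under each alternative in which they could be fitted. They were chosen for size in these same arrays, so their shared sides and calls are a description only.

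Cpr72Ec (Entrez 39816, arm 3L), a cuticular protein gene, had the largest fitted difference among named genes. Its log2 ratio was 2.96 on the Oregon R-first array and -1.36 on the exchanged array, so the arrays shared the side but not the size. The fitted difference was 2.31 ± 0.17 SE (4.96-fold, adjusted p = 8.2e-08 in limma). Mipp1 (Entrez 39841, arm 3L), a phosphatase of inositol polyphosphates, lay on the same side with nearly equal arrays, 2.06 and -2.22. Its fitted difference was 2.14 ± 0.10 SE (4.41-fold, adjusted p = 3.2e-10 in limma). NT5E-2 (Entrez 246458, arm 2R) encodes a 5′ nucleotidase, which takes the phosphate off nucleotides outside cells. It had 1.98 on the Oregon R-first array and -1.20 on the exchanged one, and differed 3.37-fold (fitted 1.75 ± 0.10 SE). Ent1 on arm 2L, which carries nucleosides across membranes, lay on the negative side, with -0.79 and 0.73 on the arrays and a fitted difference of -0.82 ± 0.09 SE (1.76-fold).

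Among digestive enzymes, mag (Entrez 40267, arm 3L), a lipase and cholesterol esterase secreted into the gut, had 1.93 on the Oregon R-first array and -1.15 on the exchanged array. It differed 2.86-fold (fitted 1.52 ± 0.08 SE, adjusted p = 2.4e-09 in limma). yip7 (Entrez 38680, arm 3L), a serine protease, shared that side, with 1.46 and -0.93 on the arrays. Its fitted difference was 1.23 ± 0.11 SE (2.35-fold, adjusted p = 4.5e-07 in limma). Of 3 fitted genes of the list of digestive enzymes and gut lipases, these 2 passed, against 17.9% of named genes. This list and those below were drawn up with earlier results of these data known, so their counts and sizes are a description only. The third, sphe, a serine protease relative, had a fitted value of -0.20 on the other side (adjusted p = 0.15), which passed without the array of Canton S in channel 1 and Zimbabwe53 in channel 2 (-0.27, adjusted p = 0.011).

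**Figure D2:**
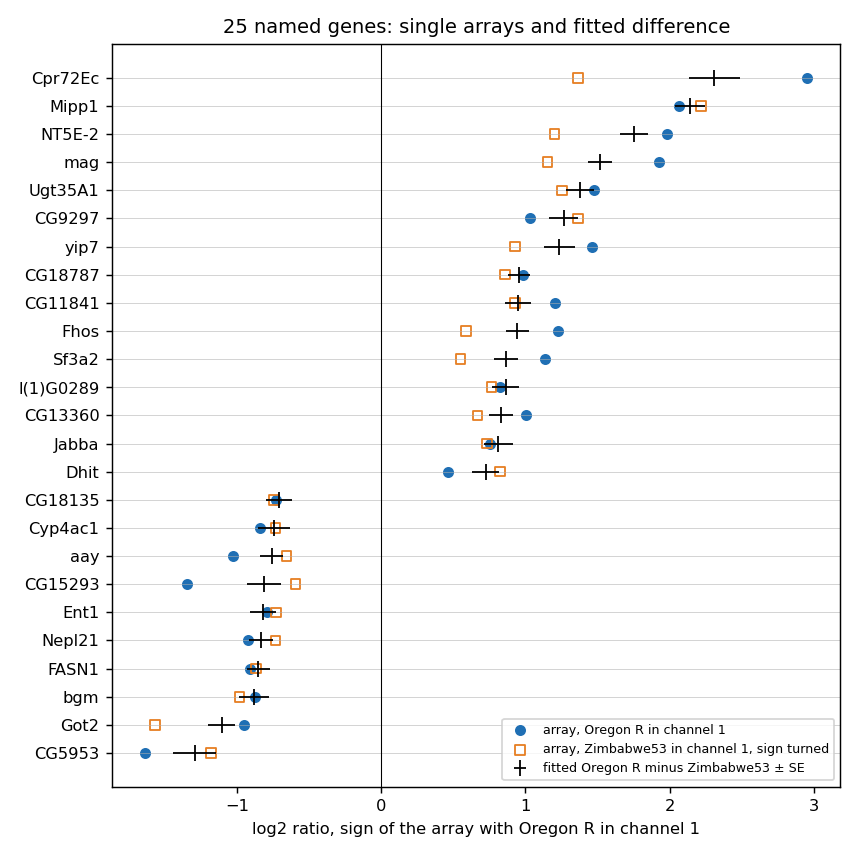
The 25 named genes with the largest fitted size, with the log2 ratio on the Oregon R-first array (filled circles), the turned ratio on the exchanged array (open squares) and the fitted difference between Oregon R and Zimbabwe53 with its SE (crosses). Both arrays lie on the same side of 0 for each gene, with the widest gap between them in Cpr72Ec.

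Lipid metabolism had 9 fitted genes of 40 listed names. Of these, 4 passed, all on the negative side, against 9.05% of named genes on that side. Since earlier results were known when the list was written, no excess is read from this. The median size of the list was 0.27 log2, against 0.13 for all 895 named genes. bgm on 2L, an acyl-CoA synthetase that activates very long chain fatty acids, had -0.87 on the Oregon R-first array and 0.98 on the exchanged one. Its fitted difference was -0.88 ± 0.11 SE (1.84-fold, adjusted p = 2.3e-05 in limma). FASN1 on 2L, the fatty acid synthase, had -0.91 and 0.87 on the arrays and a fitted difference of -0.85 ± 0.08 SE (1.81-fold, adjusted p = 8.7e-07). bmm on 3L, the triglyceride lipase brummer that releases stored fat, had -0.67 and 0.62 and a fitted difference of -0.59 ± 0.10 SE (1.51-fold, adjusted p = 0.00040). So a gene of fat synthesis and a gene of fat breakdown lay on the same side.

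The fourth gene of the lipid list, mino, a glycerol phosphate acyltransferase of triglyceride synthesis, was close to the threshold, with a fitted value of -0.27 (1.20-fold, adjusted p = 0.045 in limma). Its call was lost without the Oregon R-first array (adjusted p = 0.15), the exchanged array (0.11), the array of Oregon R with Zimbabwe2 (0.12), that of Zimbabwe2 with Zimbabwe53 (0.086) or that with Canton S in channel 1 and Oregon R in channel 2 (0.070). It was also lost without centring (-0.23, adjusted p = 0.065) and without the dye offset (-0.26, adjusted p = 0.051). Over all alternatives mino lay between -0.32 and -0.20. The other members were mdy, the diacylglycerol acyltransferase (0.19), Acsl, a long chain acyl-CoA synthetase (0.19), Lsd-2, a lipid droplet perilipin (0.14), bond, a fatty acid elongase (0.05), and Acat1, an acetyl-CoA acetyltransferase (-0.28), with adjusted p-values between 0.12 and 0.79. Acat1 (adjusted p = 0.017) and Acsl (0.042) passed with print blocks centred. Jabba on 2R, which codes for a protein that holds histones on lipid droplets and was not on the list, lay on the positive side. It had 0.76 and -0.74 on the arrays and a fitted difference of 0.81 ± 0.10 SE (1.76-fold).

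Sugar stores and central metabolism had 6 fitted genes, of which 3 passed, all on the negative side, against 17.9% of named genes called and 9.05% called on that side. Their median size was 0.32 log2. Got2 on 2L, the mitochondrial aspartate aminotransferase, was the largest. It had -0.95 on the Oregon R-first array and 1.57 on the exchanged array, and a fitted difference of -1.11 ± 0.09 SE (2.16-fold, adjusted p = 3.0e-07 in limma). PCB on 2R, pyruvate carboxylase, had -0.66 and 0.55 on the arrays and a fitted difference of -0.51 ± 0.09 SE (1.42-fold, adjusted p = 0.00049). fbp, the fructose bisphosphatase of gluconeogenesis, had -0.63 and 0.42 and a fitted difference of -0.42 ± 0.13 SE (1.33-fold, adjusted p = 0.033).

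The call of fbp depended on single arrays and on the model. It was lost without the Oregon R-first array (adjusted p = 0.17), the exchanged array (0.065), the array of Oregon R with Zimbabwe2 (0.093), that of Zimbabwe2 with Zimbabwe53 (0.089) or that with Zimbabwe53 in channel 1 and Canton S in channel 2 (0.11). It was also lost with the title stem as a random block (-0.37, adjusted p = 0.060) and with a dye term per title letter (-0.35, adjusted p = 0.072). Over all alternatives fbp lay between -0.50 and -0.29. Glyp, glycogen phosphorylase, had a fitted value of 0.16 and Treh, trehalase, of -0.02 (adjusted p = 0.26 and 0.88). Pfk, phosphofructokinase, had -0.23 (adjusted p = 0.14) and passed without the array of Canton S in channel 1 and Zimbabwe53 in channel 2 (-0.27, adjusted p = 0.049). aay on 3L, the phosphoserine phosphatase of serine synthesis, was on no list and lay on the same side as Got2, with -1.03 and 0.66 on the arrays and a fitted difference of -0.76 ± 0.08 SE (1.69-fold).

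Detoxification enzymes had 9 fitted genes, and the 5 that passed lay on both sides, 3 positive and 2 negative. Among all named genes 17.9% passed, 8.83% on the positive and 9.05% on the negative side. Ugt35A1 (Entrez 41334, arm 3R), a UDP-glycosyltransferase, was the largest, with 1.48 on the Oregon R-first array and -1.25 on the exchanged array. It differed 2.60-fold (fitted 1.38 ± 0.10 SE, adjusted p = 4.3e-08 in limma). Cyp12d1-p on 2R, a mitochondrial cytochrome P450 linked to insecticide resistance, had 0.83 and -0.75 and differed 1.61-fold (fitted 0.69 ± 0.09 SE). A near-identical copy of this gene occurs in some genomes, and a printed cDNA cannot tell the copies apart. Cyp4ac1 on 2L, another cytochrome P450, lay on the negative side, with -0.84 and 0.73 on the arrays and a 1.67-fold difference (fitted -0.74 ± 0.11 SE). GstZ2, a glutathione S-transferase, shared the side of Cyp4ac1, with -0.34 and 0.50 on the arrays and a fitted value of -0.46 ± 0.10 SE. So members of 1 enzyme family, the cytochromes P450, stood on opposite sides.

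Cyp6u1 had a fitted value of 0.33 (adjusted p = 0.022), a call lost without the Oregon R-first array (0.33, adjusted p = 0.066) or the exchanged array (0.32, adjusted p = 0.068), with the size about as large. GstE12, GstE13, Ugt50B3 and Cyp4g15 had fitted values between -0.19 and 0.12 and adjusted p-values between 0.34 and 0.83. The median size of the detoxification list was 0.33 log2. Its median signed value was 0.04, that of GstE12.

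**Figure D3:**
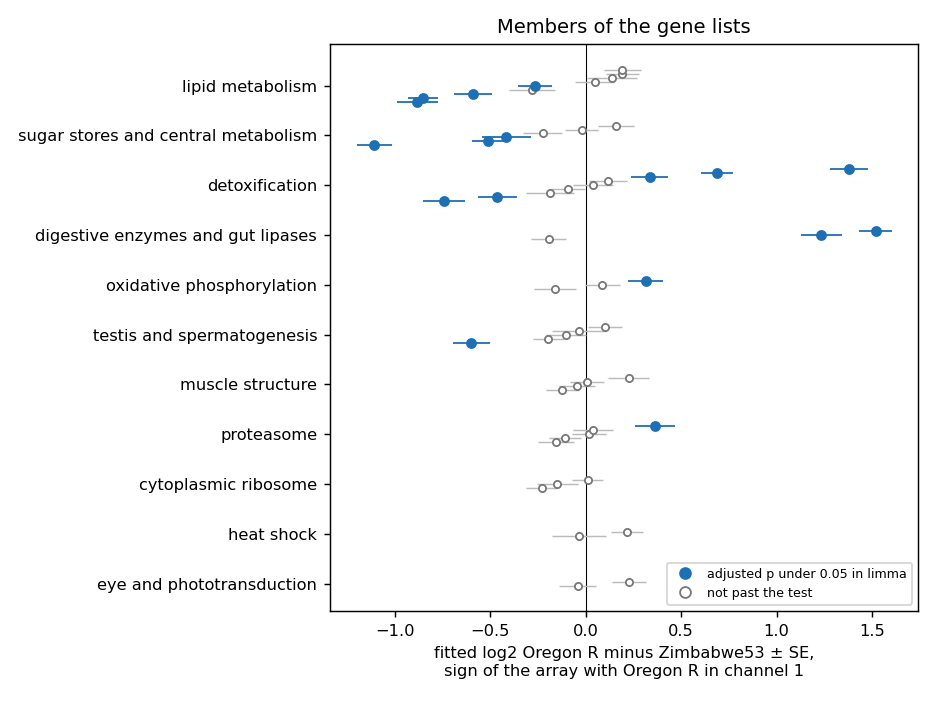
Fitted log2 difference between Oregon R and Zimbabwe53 with its SE for each fitted member of 11 gene lists. Filled points passed the test: 4 lipid genes and 3 genes of central metabolism, all on the negative side, 5 detoxification genes on both sides, 2 digestive genes on the positive side, and 1 each of oxidative phosphorylation, testis and proteasome.

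The lists of testis, muscle and basic cell machinery are small, and their counts are given beside the 17.9% of all named genes that passed. Of 5 fitted testis genes, 1 passed: Prosbeta4R2, which codes for a testis form of a proteasome subunit, on the negative side, with -1.01 and 0.63 on the arrays (fitted -0.60 ± 0.10 SE, 1.52-fold, adjusted p = 0.00029). janB, ocn, sowah and Hsp60B, a testis chaperonin, had fitted values between -0.20 and 0.10, and sowah passed with the title stem as a random block (-0.22, adjusted p = 0.035). None of 4 muscle genes passed. These were Prm, paramyosin (-0.05), Strn-Mlck, a myosin light chain kinase (-0.12), Msp300, a nuclear anchor (0.01), and Zasp66, a Z-disc protein (0.23). Zasp66 passed without the Oregon R-first array (0.39, adjusted p = 0.038). Fhos on 3L, a formin that builds actin filaments of muscle, was on no list and differed on the positive side. Its feature measured on most arrays with the lowest residual SD had 1.22 and -0.59 on the arrays and a 1.93-fold difference, and its second feature differed 2.23-fold on the same side.

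Ribosomal protein genes had no call among 3. RpL32, a gene often used as a reference, was printed many times. Its 12 fitted features all lay on the negative side, with sizes between 0.10 and 0.33 log2, and 1 of the 12 passed. In the alternatives, the feature that stood for RpL32 passed in 3 of 19. The feature that stood for it had a fitted value of -0.23 (adjusted p = 0.053), which passed without the array of Canton S in channel 1 and Zimbabwe53 in channel 2 (adjusted p = 0.045) and without that of Oregon R in channel 1 and Canton S in channel 2 (0.037). Of 5 proteasome genes, Rpt5, an ATPase of the proteasome base, passed at 0.36 (adjusted p = 0.023), but not without the exchanged array (0.20, adjusted p = 0.25). It also missed the threshold with the title stem as a random block (0.32, adjusted p = 0.055) and with a dye term per title letter (0.30, adjusted p = 0.082). Of 3 oxidative phosphorylation genes, Sqor, which oxidises sulfide, passed at 0.31 (adjusted p = 0.026). It did not pass without the Oregon R-first array (adjusted p = 0.069), the exchanged array (0.15) or the array of Zimbabwe53 in channel 1 and Canton S in channel 2 (0.098), nor with equal weights (0.091) or print blocks centred (0.053).

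The heat shock list had 2 fitted genes, Hsp60B and Droj2, a DnaJ cochaperone, and no call. Droj2 had 0.21 (adjusted p = 0.081) and passed without the Oregon R-first array (0.30, adjusted p = 0.038). It also passed without centring (adjusted p = 0.044), on single arrays with a dye term (0.035), with the title stem as a random block (0.024) and with a dye term per title letter (0.049). Of the eye genes, rdgA, a diacylglycerol kinase of phototransduction, and inaE, a diacylglycerol lipase, did not pass with the features that stood for them (adjusted p = 0.085 and 0.79), while the second feature of rdgA did (0.32, adjusted p = 0.024). The first feature of rdgA passed without centring (0.26, adjusted p = 0.046) and with print blocks centred (0.31, adjusted p = 0.0090). The clock gene Pdp1 had 0.23 (adjusted p = 0.064), and passed without the array of Canton S in channel 1 and Zimbabwe53 in channel 2 (adjusted p = 0.039) and with the title stem as a random block (0.032). In all, Pdp1 passed in 5 of 20 alternatives, among them without centring (adjusted p = 0.027 in limma) and with arrays scaled (0.041). The single odorant-binding gene, Obp19d on the X, had 0.53 and -0.95 on the arrays and differed 1.60-fold on the positive side (adjusted p = 3.6e-05 in limma). No immune, accessory gland or ovary gene of the lists was fitted.

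The remaining genes of the 25 largest were of other kinds. On the positive side lay CG9297 on 3R (2.40-fold), CG18787 on 2L (1.94-fold), CG11841 on 3R (1.93-fold), the splicing factor Sf3a2 on 3L (1.82-fold), l(1)G0289 on the X (1.82-fold), CG13360 on the X (1.78-fold) and Dhit on 2R (1.65-fold). On the negative side lay CG5953 on 2L (2.45-fold), the neprilysin-like peptidase gene Nepl21 on 3R (1.78-fold), CG15293 on 2L (1.76-fold) and CG18135 on 3L (1.64-fold). CG5953 had -1.64 on the Oregon R-first array and 1.18 on the exchanged array. By chromosome arm, 23.5% of 162 fitted named genes passed on 2L, 19.5% of 185 on 3L, 18.4% of 212 on 3R, 16.2% of 179 on 2R and 12.4% of 145 on the X, against 17.9% over all arms. On 2L the calls were 13 positive and 25 negative, and none of the 12 genes on the fourth chromosome passed. No test was made between arms.

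The next comparison asked whether arrays that do not carry both strains gave the same differences. Oregon R can be set against Zimbabwe53 through Canton S (4 arrays) or through Zimbabwe2 (2 arrays, each of a pair hybridised once), with the same RNA pools. The gap between the direct mean and the value through Canton S had a median of 0.18 log2 over 2714 features, and that through Zimbabwe2 of 0.20 over 2664. The distance of each direct array from the mean of the pair had a median of 0.11. That distance rests on 2 arrays, while each gap also holds the error of the arrays of its path. The measures are therefore unlike, and nothing is read from their difference in size. All 23 of the 25 largest genes with a path through Canton S, and all 24 with a path through Zimbabwe2, lay on the side of the direct value. The fit that chose these 25 holds the arrays of both paths, so the choice itself favoured a shared side. Mipp1 had 2.14 directly, 2.27 through Canton S and 2.02 through Zimbabwe2. Got2 had -1.26, -0.78 and -1.12. Against the path through Zimbabwe2 the gap was widest in Cpr72Ec, with 2.16 directly and 3.49 by that path. Next came NT5E-2, with 1.59 and 2.27, and Cyp4ac1, with -0.79 and -0.16. In a fit without the 2 direct arrays, 292 features passed (9.41%), with a median SE of 0.14 log2. All 25 genes passed there (largest adjusted p = 0.024 in limma), but the arrays of that fit also took part in choosing them.

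Without the direct arrays 8 list members no longer passed, all with the same side as before. Over all features, 271 of the 631 calls made with all arrays were kept there, so nothing particular to the lists is read from the 8. GstZ2 had -0.52 ± 0.16 SE there (adjusted p = 0.060), against -0.46 ± 0.10 SE with all arrays, and Cyp6u1 had 0.31 ± 0.15 SE (0.25), against 0.33 ± 0.10 SE. These sizes were about as large as before, with a wider SE. The value was -0.38 for PCB (adjusted p = 0.091), -0.29 for fbp (0.40), -0.20 for mino (0.39) and 0.23 for Sqor (0.37). Prosbeta4R2 had -0.35 (adjusted p = 0.070) and Rpt5 0.20 (0.44), both smaller by over 1.5 times. The direct value and the path through Canton S were farthest apart in CG8042 (-0.31 and 0.76), CG8635 (-0.11 and 0.80), CG2656 (-0.06 and 0.84), Iru (-0.19 and 0.68) and Afg3l2 (-0.48 and 0.37), in which the sides opposed each other. None of these 5 passed in the fit of all arrays (adjusted p between 0.28 and 0.77), while CG8042 passed without the direct arrays (0.51, adjusted p = 0.041).

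**Figure D4:**
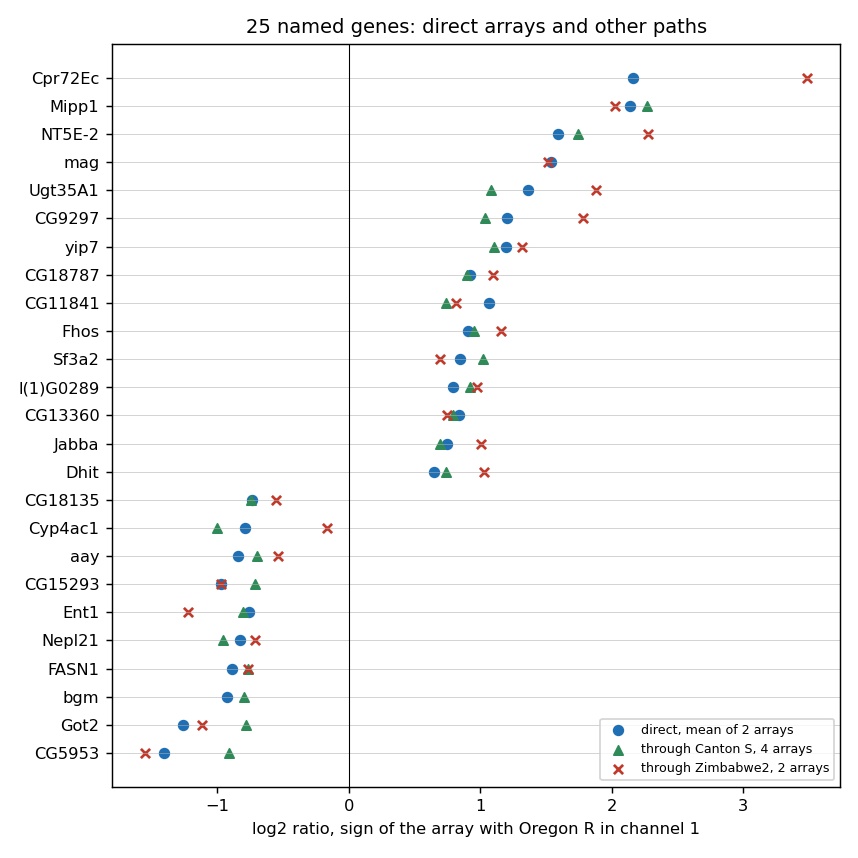
For the 25 named genes with the largest fitted size, the log2 difference between Oregon R and Zimbabwe53 as the mean of the 2 direct arrays (circles), through Canton S (triangles) and through Zimbabwe2 (crosses). The 3 values lie on the same side wherever they could be had, with the widest gap in Cpr72Ec. The 25 were chosen in a fit that holds all these arrays.

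The last comparison placed both strains relative to Canton S, another laboratory stock, in the same fit. Over all features, Oregon R and Canton S differed in 265 (8.54%), and Zimbabwe53 and Canton S in 929 (29.9%). These comparisons share pools and arrays, their signs are unsettled in the same way, and their values are given side by side. Of the 25 largest genes, 13 differed between Oregon R and Canton S and 22 between Zimbabwe53 and Canton S. These 25 were chosen for the difference between Oregon R and Zimbabwe53, so nothing is read from these counts beside the 7.71% and 24.4% of all named genes. Canton S lay between Oregon R and Zimbabwe53 in 22 of the 25 genes, and outside them in Sf3a2, CG15293 and Cyp4ac1. The choice of genes for a large difference between Oregon R and Zimbabwe53 favours Canton S lying between them. The share over all named genes was not worked out for this position, so nothing is read from this count either.

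The genes fell at different points of that scale. In Mipp1, Oregon R minus Canton S was 0.31 ± 0.10 SE (adjusted p = 0.073) and Zimbabwe53 minus Canton S was -1.83 ± 0.09 SE (adjusted p = 1.0e-09 in limma). Cpr72Ec had 0.33 for Oregon R and -1.98 for Zimbabwe53, and Fhos had 0.03 and -0.92. NT5E-2 showed the opposite order, with 1.65 ± 0.10 SE for Oregon R (adjusted p = 2.0e-08 in limma) and -0.10 for Zimbabwe53 (adjusted p = 0.43). l(1)G0289, with 0.83 and -0.04, was like NT5E-2, and so was CG18135, with -0.51 for Oregon R (adjusted p = 0.0019) and 0.20 for Zimbabwe53 (adjusted p = 0.087). In mag, both strains differed from Canton S on opposite sides, by 0.84 for Oregon R and -0.68 for Zimbabwe53, and Ugt35A1 had 0.64 and -0.74. Of the 4 lipid genes past the test between the strains, FASN1 had -0.06 for Oregon R and 0.80 for Zimbabwe53, bgm -0.15 and 0.73, bmm 0.06 and 0.66, and mino -0.22 and 0.04. Cyp12d1-p had 1.87 for Oregon R and 1.18 for Zimbabwe53, so both strains lay far from Canton S on the same side.

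Among all 8 strains, Oregon R and Zimbabwe53 were the 2 extremes in Mipp1, bgm and CG18135 of the 25 genes. Oregon R was at an end of the range in 15 of the 25 and Zimbabwe53 in 8. The 25 were chosen for a large difference between these 2 strains, which favours the ends of the range. No share over all named genes was worked out, so nothing is read from these counts.

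**Figure D5:**
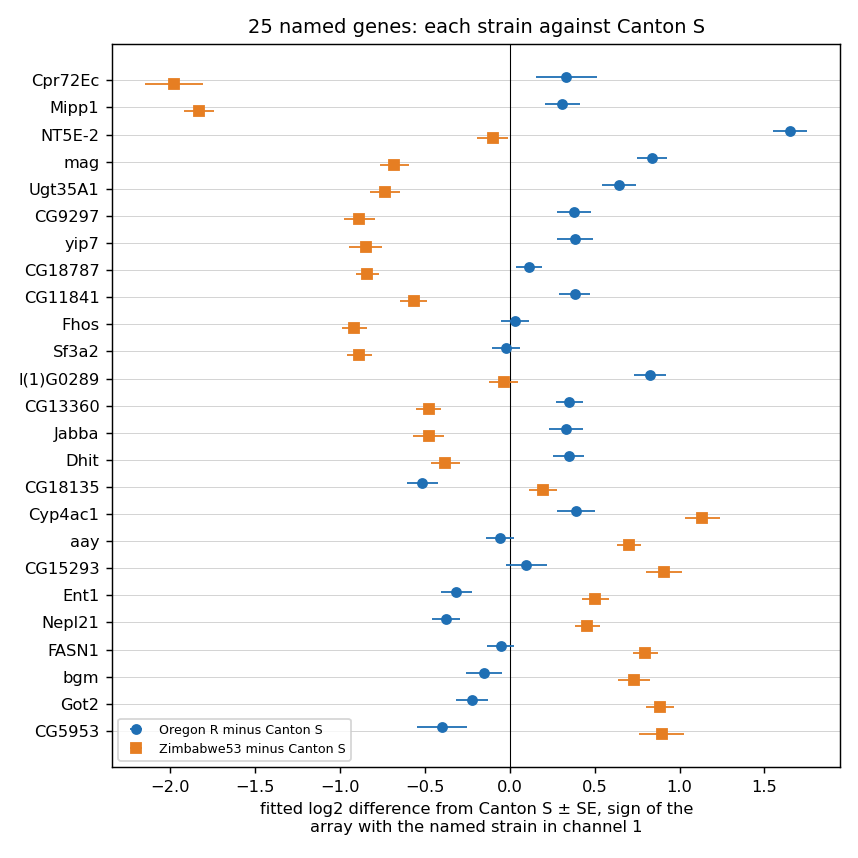
Fitted log2 difference from Canton S with its SE for Oregon R (circles) and Zimbabwe53 (squares) in the 25 named genes with the largest fitted size. Zimbabwe53 lies farther from 0 in Mipp1, Cpr72Ec and Fhos, and Oregon R in NT5E-2, l(1)G0289 and CG18135.

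The exchange of channels also gave an offset for each gene in this pair, taken as 0.5 times the sum of both log2 ratios. It holds dye bias and array error together, unlike the mean over 8 exchanged pairs subtracted in the fit. The offset of this pair was largest for Cpr72Ec (0.80), followed by CG13784 (-0.52), RhoGAPp190 (-0.52), larp (-0.50) and Smox (-0.49). In the last 4 both arrays had the same sign as deposited, and none passed the test (adjusted p between 0.15 and 0.34). The titles of the 2 arrays start with different letters, whose meaning the labels do not give, so the exchange of channels and this letter cannot be told apart within the pair. Of the named genes on both arrays, 3 could not be fitted, and Ebp was the one of them whose arrays lay on the same side once turned, with -0.43 and 0.56 as deposited and centred.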

How the data were processed

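Males of 8 strains were measured on 23 arrays, 21 with different strains in the channels. The authors deposited log ratios of the channels; the sources used here do not give scanner, spot filter, normalization, numerator or log base, and the deposited ratios were read as log10. They were multiplied to log2 and centred per array. Gene names came from the platform annotation, and all 1943 single-symbol Entrez identifiers matched the Release 6 gene table, used for arms only.

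A dye offset per feature (mean over the 8 channel-exchanged pairs) was subtracted, arrays of a pair were turned and averaged, and 8 strain levels were fitted to 13 pair values, weighted by arrays (limma 3.58.1, R 4.3.3). Features needed both direct arrays, 10 pairs and 3 complete exchanged pairs. Benjamini-Hochberg adjustment ran over all 3102 features, with a threshold of 0.05. In simulated data of this comparison with 3102 features, 100 were changed by 0.5 log2 and 100 by 1 log2. Of these, 73% and 98% were recovered, with 6 of 177 calls on unchanged features. The real data gave 631 calls, so these shares need not hold for them.

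For genes printed more than once, the feature on most arrays, then of lowest residual SD, stood for the gene. Of 33 such genes, 4 had features that differed in call. The genes named are the 25 with the largest fitted size among those past the test, and all fitted list members. Also named are the 5 with the largest offset in the direct pair. So are the 5 with the widest gap between the direct value and the path through Canton S. Up to 3 unfitted genes by direct size, whose arrays lay on the same side once turned, complete the choice. Features with several symbols or none were counted and not named. The members and lists were chosen with earlier results of these data known. Alternatives changed centring, scaling, dye offset, averaging, weights, filters and arrays.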

Additional observations from a re-analysis of the deposited data

How the results depend on the processing

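The number of differing features stayed within 1.5 times of 631 under most alternatives. It was 407 with features complete on all arrays (100 named genes, 40 features beyond 2-fold), where fewer features were tested, and 292 without both direct arrays (73 named genes). Leaving out single arrays gave 461 to 730 features, 116 to 193 named genes, 61 to 64 features beyond 2-fold and a positive share of 46.2% to 51.6%. Only arrays of the direct pair and of the paths through Canton S and Zimbabwe2 were left out in this way, not the other arrays of the fit. The positive share was 59.97% without centring. Without the last 2 grid rows, an alternative chosen after seeing the data, 39 features lay beyond 2-fold, and 1.42% of direct ratios did. With complete features 7.01% of direct ratios lay beyond 1.5-fold. Centred print blocks, also chosen after seeing the data, gave 841 features, and the title stem as a random block on single arrays gave 695. Of 1559 combinations of a named gene and an alternative, 1505 kept their side of the threshold, 32 lost a call, 22 gained one, and no called gene changed sign. No paired analysis was possible because the replicate numbers were given in accession order and mark no shared animals; the title stem used as a block is another label. How far each spot lay above its background is not known from ratios alone.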

Other observations

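The widest differences lay in features without a gene name here, and those described first lie outside the last 2 grid rows. Feature 1.3.16 had a log2 ratio of 5.20 on the Oregon R-first array and -3.83 on the exchanged array, and a fitted difference of 4.22 ± 0.15 SE (18.6-fold), and feature 9.9.13 had 3.27 and -3.33 (fitted 3.25, 9.51-fold). On the negative side, feature 2.1.14 had -3.37 and 3.57 (fitted -3.49, 11.3-fold), and feature 6.2.6 had -2.58 and 2.34 (fitted -2.43, 5.39-fold). These 4 exceed Mipp1 and Cpr72Ec in fitted size.

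Of 23 features called beyond 4-fold, 15 lay in the last 2 grid rows, taking the 3 numbers of an identifier as print block, row and column. These rows hold 73 of the 3102 fitted features. Row 19, column 5 was fitted in 9 blocks, and 8 of these were called, with fitted values between -2.60 and -0.19 over the 9. Row 20, column 8 was called in all 7 fitted blocks, with fitted values between -2.69 and -2.19. There the median was -0.57 on the Oregon R-first array and 3.16 on the exchanged array, but the blocks were not alike. Some blocks had arrays of closer size, with -2.02 and 2.48, -2.01 and 2.67, and -1.92 and 2.58. In the other blocks the Oregon R-first array lay between -0.57 and -0.38, and the exchanged array between 3.16 and 3.33. The 12 fitted features of RpL32 lay in the same rows, at row 19, column 3 or row 20, column 6. Whether the spots of row 19, column 5 and of row 20, column 8 hold the same DNA was not tested.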
